A study of Mus musculus with 18 samples.

Results

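The tumours compared here were melanoma allografts in which the driving oncogene had been switched off and allografts of the same cells in which the kinase MEK had been inhibited, both for 4 days. They were chosen by their labels as the 6 tumours from which doxycycline was withdrawn, called NRAS-off here, and the 6 tumours given the MEK inhibitor AZD6244, which together are 12 of the 18 tumours measured. The other 6 received vehicle; they entered neither the comparison nor the choice of genes, and their values are printed as untreated background without a test. All tumours grew from 1 mouse melanoma cell line, iNRAS-475, in which NRAS is induced by doxycycline, after intradermal injection into nude mice, a strain without mature T cells. Hosts drank water with 2 mg/ml doxycycline until the tumours measured 200 to 500 mm3 after 6 weeks. The MEK inhibitor arm then received 100 mg/kg AZD6244 and the NRAS-off arm lost doxycycline, so other effects of the drug or of the antibiotic cannot be told apart from those of MEK or NRAS. RNA came from about 50 mg of trimmed tumour, and each array was labelled from 10 ug of total RNA. The study set genetic loss of NRAS against inhibition of MEK, and the question followed here is which transcripts that depend on the oncogene remain when MEK is inhibited.

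RAS proteins are membrane switches that, when bound to GTP, engage several effectors. RAF kinases pass the signal to MEK and ERK, while PI3-kinases and the RALGDS family carry it along routes that do not need MEK. ERK induces immediate early genes, ETS factors, D-type cyclins and also its own inhibitors, such as the dual-specificity phosphatases and the Sprouty proteins. In melanoma this route is a main drive of the cell cycle, and AZD6244 (selumetinib) blocks MEK1 and MEK2 at a site apart from the ATP pocket.

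Each array reported 45037 probe sets, of which 34945 carried 1 gene symbol, 932 carried several and 9160 carried none. Median intensities lay between 72.3 and 78.5 on the 12 arrays. Correlations over the 15017 genes tested, with 1 probe set each, were 0.977 to 0.997 within an arm and 0.945 to 0.971 between the arms. Over the same genes the first principal component, which separated the arms, held 68.4% of the variance. NRAS-off replicate 2 stood apart on the second component, which held 9.30%. It read 6785 for Krt14, a keratin of basal keratinocytes, whereas the remaining 5 tumours of its arm read 27.4 to 117 and the MEK inhibitor tumours 18.3 to 161 (median 28.6), and none of the 10 keratinocyte markers tested was called in the comparison. Without that tumour 3373 genes were called lower and 3590 higher, against 3413 and 3675 with it. Sox10, the transcription factor of the melanocyte lineage, read 7901 to 11275 (median 9424) in NRAS-off, 11503 to 16608 (median 12691) in MEK inhibitor and 8258 to 10311 (median 9162) in vehicle tumours, while the pigment enzyme gene Dct read 43.7 to 75.9 (median 60.7) and 40.6 to 78.0 (median 54.3) in the compared arms and Tyr, Tyrp1, Gpr143, Oca2 and Trpm1 lay below the filter on low values. Of the melanocyte markers, then, Sox10 was abundant in all arms and the pigment enzymes were near the floor of the array. Nothing in the labels says whether 2 tumours of an arm shared a mouse, so p-values measure the spread between these tumours, and the number of arrays limits the precision.

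Intensities below are the deposited linear values, given as the lowest to the highest of the 6 tumours of an arm with the median. Differences are NRAS-off minus MEK inhibitor on the scale log2(intensity + 16), with the standard error from limma, so that a negative value marks a transcript lower in NRAS-off than in MEK inhibitor tumours, and they understate the change of dim genes. A negative difference alone does not say that the untreated level was kept: Diablo, an activator of cell death picked as an example after its values were seen, differed by −0.42 ± 0.05 with medians of 1153 in NRAS-off, 1508 in MEK inhibitor and 1083 in vehicle tumours. Vehicle levels are therefore given beside the differences of many of the genes and lists. Where they are not given, a difference does not say which arm moved away from the untreated level. Adjusted p-values are from limma with Benjamini-Hochberg adjustment over the 15017 genes tested. In bulk tumours, fewer cells of a type and less RNA per cell cannot be told apart.

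The 2 ways of interrupting the pathway gave different transcriptomes. At an adjusted p under 0.05, 7088 of 15017 genes (47.2%) differed, 3413 (22.7%) lower and 3675 (24.5%) higher in NRAS-off tumours. All 6 tumours of 1 arm lay outside the range of the other for 1994 genes lower in NRAS-off (13.3%) and 2254 genes higher in NRAS-off (15%). Most differences were small. Only 409 of the lower and 674 of the higher genes passed 2-fold, 82 and 97 passed 4-fold, and 7 and 10 passed 8-fold. Counts of called genes in the lists below are read against the shares of 22.7% and 24.5%. Those shares do not apply to counts of medians below, within or above the range of the vehicle tumours. Such counts were not made over all genes tested, so they describe a list without a background to compare.

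**Figure D1:**
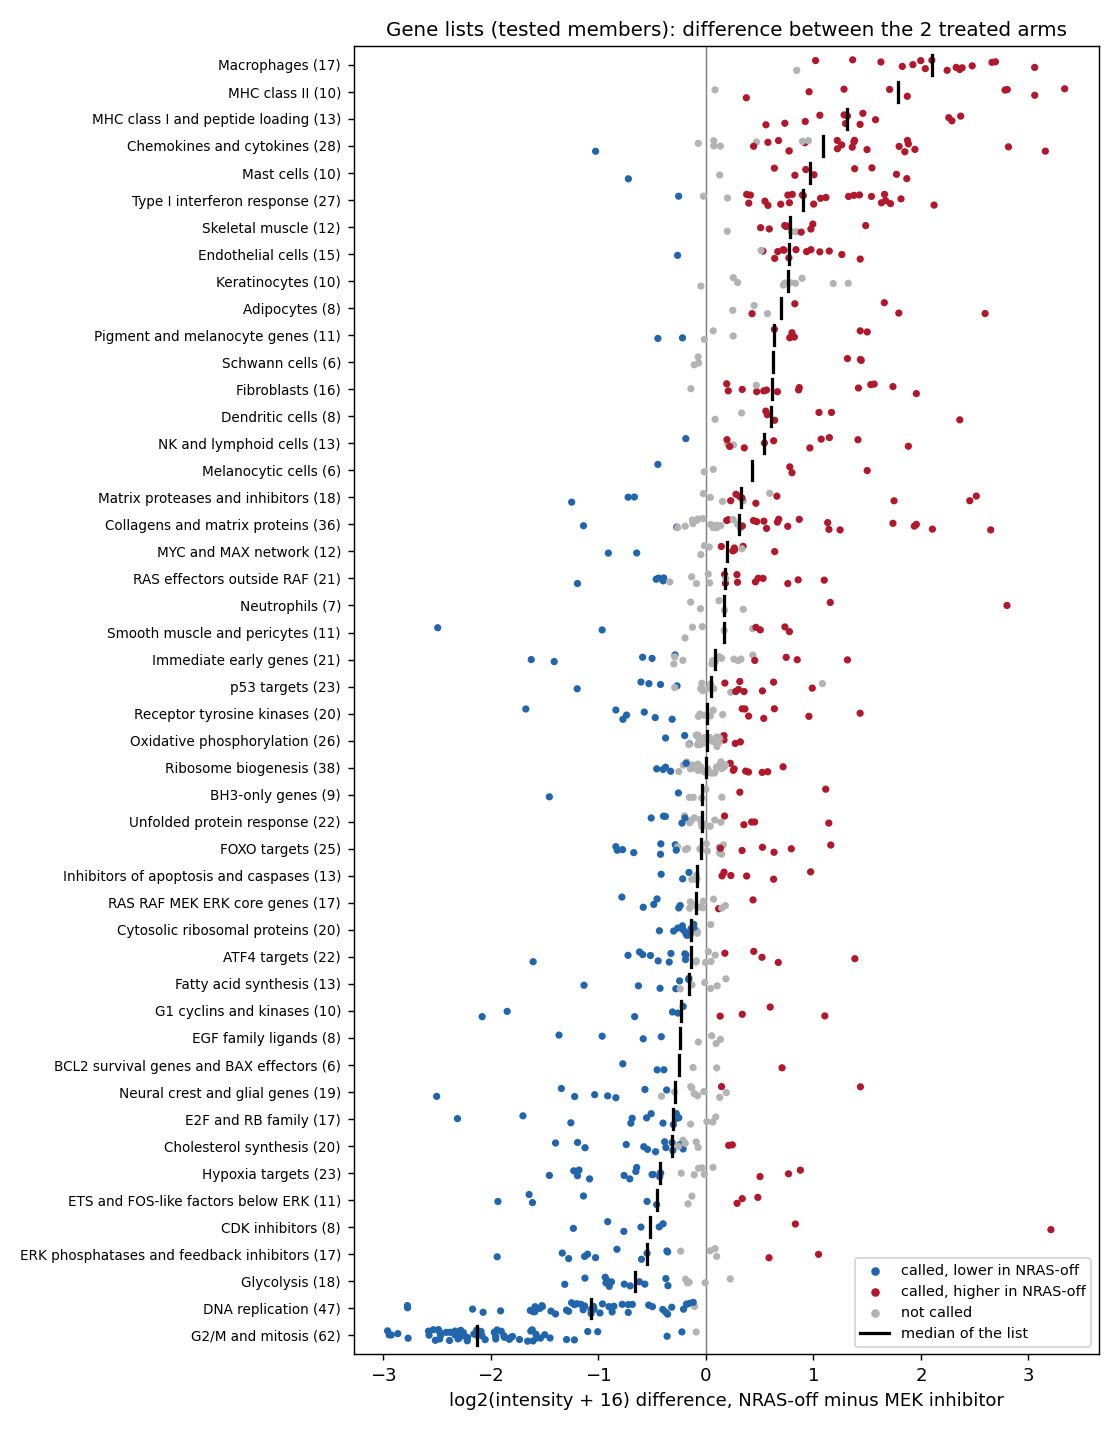
Each point is 1 gene of the list named on the axis, placed by its difference between NRAS-off and MEK inhibitor tumours in log2 units; blue points were called lower, red points higher and grey points not called, and the tick is the list's median. Mitotic and replication genes lie to the lower side with medians of −2.13 and −1.07, and macrophage markers to the higher side with a median of 2.10.

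Of the 12 transcripts with the most negative differences, 4 belong to mitosis and the other 8 to varied processes. Crabp1, which encodes a retinoic acid binding protein, read 85.6 to 251 (median 159) in NRAS-off and 2463 to 4954 (median 3536) in MEK inhibitor tumours. It had the most negative difference, −4.40 ± 0.23 (adjusted p = 2.39e-08), and untreated tumours read 4571 to 8433 (median 5141). The MEK inhibitor tumours thus overlapped the untreated ones for Crabp1, and no NRAS-off tumour came near either. Nefl, the neurofilament light chain, read 58.3 to 134 (median 91.7) in NRAS-off, 1021 to 2181 (median 1872) in MEK inhibitor and 6299 to 7368 (median 6627) in vehicle tumours, a difference of −3.94 ± 0.21. Hmga2, an architectural chromatin protein of embryonic and malignant cells, read 112 to 245 (median 179), 1997 to 4319.5 (median 2377) and 7735 to 9124 (median 8373) in the same order, with a difference of −3.91 ± 0.22, and its 3 other probe sets were lower too. Prkg2, a cGMP-dependent protein kinase, read 424 to 1059 (median 589.7), 5110.5 to 8818 (median 6854) and 16167 to 19023 (median 18333), a difference of −3.38 ± 0.22. In these last 3 genes the MEK inhibitor tumours lay between the other arms without touching either.

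Dlk1, a membrane protein related to Notch ligands, read 265 to 553 (median 442) in NRAS-off and 2757 to 4595 (median 2955) in MEK inhibitor tumours against 5345 to 10327 (median 8320.0) untreated, a difference of −2.97 ± 0.18. Lgr6, a receptor for R-spondins that raises WNT signalling, differed by −3.31 ± 0.18, from 90.4 to 169 (median 107) to 901 to 1882 (median 1351). Gzmd, a granzyme, differed by −3.02 ± 0.32, and Lbhd2 by −3.01 ± 0.14. The medians of MEK inhibitor and vehicle tumours were 509 and 1482 for Gzmd and 801 and 1577 for Lbhd2. For Lgr6 the vehicle median was 4625. Of the MEK inhibitor tumours, 1 was low for Gzmd, at 175.5 against 425 to 582 in the other 5.

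The remaining 4 of the 12 most negative differences were genes of mitosis, and for all 4 the median of the untreated tumours was lower than that of the MEK inhibitor tumours. Top2a, the topoisomerase that untangles chromosomes, read 329 to 642 (median 471) in NRAS-off and 2504 to 4197 (median 3528) in MEK inhibitor tumours against 1679 to 2369.5 (median 1921) untreated, a difference of −2.86 ± 0.16. Bub1, a kinase of the spindle checkpoint, read 45.4 to 147 (median 83.9), 601 to 946 (median 779.6) and 402 to 653 (median 499) in the same order, a difference of −2.94 ± 0.20. Pbk, a mitotic kinase, and Anln, which builds the contractile ring, differed by −2.96 ± 0.21 and −2.92 ± 0.16.

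**Figure D2:**
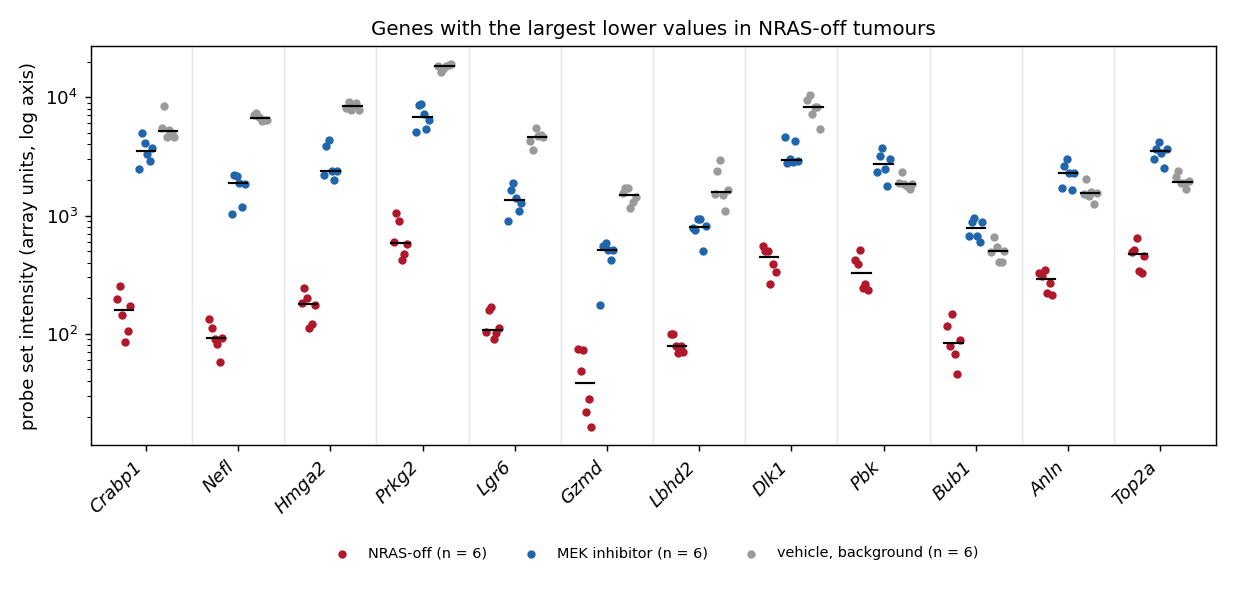
Probe set intensity (array units, log axis) of the 12 genes with the most negative differences in the 6 NRAS-off (red), 6 MEK inhibitor (blue) and 6 vehicle tumours (grey); each point is 1 tumour and each bar the arm's median. The 12 were chosen among called genes without overlap between red and blue points; blue points lie above the grey medians for most tumours in Pbk, Bub1, Anln and Top2a.

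Inhibitors that ERK induces against itself were lower without NRAS than under the MEK inhibitor. Of 17 ERK phosphatases and feedback inhibitors tested, 11 were lower and 2 higher in NRAS-off tumours, with a median difference of −0.55 against −0.007 over all genes tested. That median was −0.28 with the mean over a gene's probe sets and −0.29 with every probe set tested. Not every member of the list is an inhibitor of ERK: the 17 include Lif, a cytokine that is counted again among chemokines and cytokines. Dusp4, a nuclear ERK phosphatase, read 136 to 329 (median 218) in NRAS-off and 762 to 1059.6 (median 852) in MEK inhibitor tumours, a difference of −1.94 ± 0.19, against 4295 to 6040.3 (median 5662) in vehicle tumours. Dusp6, the cytoplasmic ERK phosphatase, read 786 to 1667 (median 1117), 1941 to 2807 (median 2534) and 7412 to 9135 (median 8337) in the same order, a difference of −1.13 ± 0.16. Both genes were below every untreated tumour in both arms, and lower still without NRAS. Spry2 and Spry4, which restrain RAS signalling downstream of receptors, differed by −1.33 ± 0.14 and −0.83 ± 0.12. Phlda1 differed by −1.28 ± 0.15. The median of the MEK inhibitor arm lay below the range of the 6 vehicle tumours for 14 of the 17 genes, as did that of the NRAS-off arm; both arms share those vehicle tumours. The 2 higher members were Errfi1, an inhibitor of the EGF receptor (1.05 ± 0.11), and Dusp2 (0.59 ± 0.14).

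Transcription factors below ERK were divided. Of 11 ETS and FOS-like factors, 6 were lower and 3 higher in NRAS-off tumours, with a median of −0.46. Etv4, an ETS factor of the PEA3 group, read 73.9 to 94.1 (median 87.5) in NRAS-off, 211 to 378 (median 295) in MEK inhibitor and 712 to 794 (median 760.2) in vehicle tumours, a difference of −1.61 ± 0.13. Its relative Etv5 differed by −1.14 ± 0.16. Fosl1, an AP-1 subunit, read 29.5 to 73.4 (median 55.5) in NRAS-off against 166 to 265 (median 186) in MEK inhibitor tumours. It differed by −1.64 ± 0.16, and vehicle tumours read 817 to 1256 (median 982). Ier3, an early response gene held in this list that is not an ETS factor, differed by −1.93 ± 0.16. Elf1, Fosl2 and Ets2 were the 3 higher ones.

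Among 21 immediate early genes, 5 were lower and 4 higher. Egr1, a zinc finger factor induced within minutes of growth factor signalling, differed in the opposite direction to Etv4 and Etv5: it read 2421 to 3397 (median 3032) in NRAS-off and 1381 to 1853 (median 1719) in MEK inhibitor tumours, a difference of 0.85 ± 0.09, against 4164 to 9977 (median 4390.1) in vehicle tumours. Egr2 read 642 to 997 (median 828), 225 to 407 (median 343) and 2769 to 4123 (median 3155) in the same order and differed by 1.32 ± 0.15. Both were thus higher without NRAS than under the inhibitor, with no overlap between the arms. Nr4a2, an orphan nuclear receptor, differed by −1.62 ± 0.13 and Maff, a small MAF factor, by −1.41 ± 0.15. Of 8 EGF family ligands, 4 were lower and none higher. Ereg differed by −1.36 ± 0.36, Hbegf by −0.96 ± 0.13, and Btc and Tgfa by −0.58 ± 0.19 and −0.41 ± 0.14. Medians in NRAS-off, MEK inhibitor and vehicle tumours were 37.3, 150 and 2333 for Ereg and 1087, 2111 and 5886 for Hbegf. They were 299, 421 and 1877 for Btc and 52.6, 82.2 and 92.3 for Tgfa. The call of Tgfa was lost when any of MEK inhibitor replicates 1, 3 or 5 or NRAS-off replicates 3, 4 or 5 was left out, with values from −0.38 to −0.35.

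**Figure D3:**
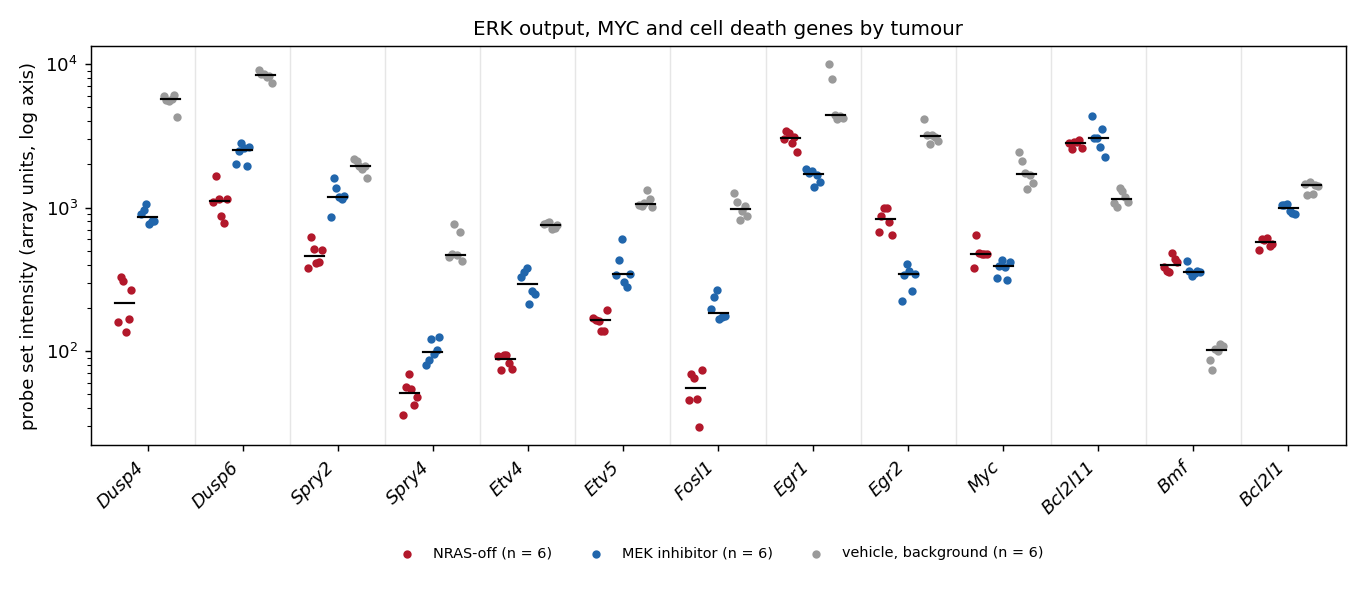
Probe set intensity (array units, log axis) of ERK target, MYC and cell death genes in the 6 NRAS-off (red), 6 MEK inhibitor (blue) and 6 vehicle tumours (grey), with a bar at each median. The red points lie below the blue ones for Dusp4, Spry2, Etv4 and Fosl1 and above them for Egr1 and Egr2, and they overlap for Bcl2l11 and Bmf.

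The components of the pathway differed little. Nras was read by 3 probe sets with differences of 0.08, −0.11 and −0.05, none of them called; the brightest of them read 1853 to 2009 (median 1914) in NRAS-off and 1858 to 2229 (median 1953) in MEK inhibitor tumours. Whether any of the 3 detects the induced transgene is not stated in the labels, so they do not check the arms. Braf and Map2k1, which encode a RAF kinase and MEK1, differed by −0.02 ± 0.06 (adjusted p = 0.752) and −0.15 ± 0.07 (adjusted p = 0.109); 95% intervals were −0.14 to 0.10 and −0.31 to 0.01. Map2k1 was called, at −0.20 with an adjusted p of 0.0276, without NRAS-off replicate 3. Of 17 core genes of the RAS, RAF, MEK and ERK chain, 6 were lower and 2 higher. Mras, a RAS relative, differed by −0.78 ± 0.08, and Nf1, the RAS GTPase activator, by −0.45 ± 0.09. The 2 other Nf1 probe sets tested were not called.

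Of 21 effectors of RAS outside RAF, 10 were higher and 5 lower, with a median of 0.17. The median was smaller under other choices, at 0.06 with every probe set tested, 0.07 with the most variable probe set per gene and 0.11 with the mean over probe sets or a filter at the 50th percentile. Pik3cg, the catalytic PI3-kinase subunit of leukocytes, differed by 1.10 ± 0.10, and Rassf5, a RAS-binding adaptor abundant in lymphoid cells, by 0.86 ± 0.15; leukocyte markers moved in the same direction (given below), and their part in these differences was not tested. Pik3r3, a regulatory PI3-kinase subunit, differed by 0.76 ± 0.13. Pdk1, which the list holds, encodes in the mouse a pyruvate dehydrogenase kinase that hypoxia induces and no effector of RAS, and it differed by −1.19 ± 0.18. Receptor tyrosine kinases were balanced at 7 lower and 7 higher of 20. Met, the receptor of hepatocyte growth factor, read 90.2 to 181 (median 131) in NRAS-off and 294 to 545 (median 453) in MEK inhibitor tumours. It differed by −1.67 ± 0.16, and vehicle tumours read 289 to 632 (median 343). Egfr differed by 0.96 ± 0.12 and Ntrk2 by 1.43 ± 0.17. Of their other probe sets tested, 2 of 5 for Egfr and 1 of 3 for Ntrk2 were called higher.

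Among genes of cell cycle entry, the cyclins Ccnd1 and Ccne2 had the most negative differences. Ccnd1, the D-type cyclin that ERK induces, read 1537 to 2545 (median 1838) in NRAS-off and 6309 to 10106 (median 8522) in MEK inhibitor tumours, a difference of −2.08 ± 0.14 (adjusted p = 1.53e-07). Untreated tumours read 15273 to 17959 (median 16722), so that the 3 arms were ordered without overlap. Ccne2, a cyclin of the G1 to S transition, read 42.5 to 71.0 (median 59.3) in NRAS-off, 158 to 352 (median 256) in MEK inhibitor and 113 to 188 (median 165) in vehicle tumours, a difference of −1.85 ± 0.16. Ccnd2 was 1.11 ± 0.09, in the opposite direction to Ccnd1. Of 10 G1 cyclins and kinases, 6 were lower and 4 higher.

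The kinases that D-type cyclins bind were lower by smaller amounts. Cdk4 read 2060.3 to 2551 (median 2173) in NRAS-off, 2416 to 2973 (median 2657) in MEK inhibitor and 2409.9 to 2867 (median 2564) in vehicle tumours, a difference of −0.26 ± 0.07 (adjusted p = 0.00557). Cdk6 read 619 to 823 (median 734), 874 to 1417 (median 1183) and 1256 to 1491 (median 1301) in the same order, a difference of −0.66 ± 0.12. Of 8 CDK inhibitor genes, 6 were lower and 2 higher. Cdkn1b (p27) differed by −0.40 ± 0.08, a call that was lost at −0.33 (adjusted p = 0.0592) when the most variable probe set stood for the gene, and Cdkn1a (p21) by −0.60 ± 0.08. The 2 higher ones were Cdkn2a (p16 and p19), at 0.83 ± 0.16, and Cdkn1c (p57). Cdkn1c read 954 to 2909.7 (median 1938) in NRAS-off, 161 to 237 (median 198) in MEK inhibitor and 117 to 151 (median 126) in vehicle tumours, a difference of 3.21 ± 0.22. Every NRAS-off tumour was above every other tumour for Cdkn1c, by a wide margin.

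Genes that carry out S phase and mitosis were higher under MEK inhibition than without NRAS, almost without exception. Of 47 DNA replication genes tested, 45 were lower in NRAS-off tumours, none was higher, and the median was −1.07. Rrm2, a subunit of ribonucleotide reductase, read 191 to 289 (median 266) in NRAS-off, 1513 to 2457 (median 1695) in MEK inhibitor and 988 to 1538 (median 1314) in vehicle tumours, a difference of −2.77 ± 0.13. Uhrf1, which maintains DNA methylation at replication forks, differed by −2.77 ± 0.14, Tk1, the cytosolic thymidine kinase, by −2.17 ± 0.18 and Pole, a replicative polymerase, by −2.07 ± 0.14. The MEK inhibitor arm's median lay within the range of the vehicle tumours for 22 of the 47 genes and above it for 23, while the NRAS-off median lay below it for 42.

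Of 62 genes of G2 and mitosis tested, 61 were lower in NRAS-off tumours, none was higher, and the arms did not overlap for 60. The list's median was −2.13. Mki67, the proliferation marker, read 368 to 617 (median 529.6) in NRAS-off, 2046 to 3329 (median 2957) in MEK inhibitor and 1232 to 1649.9 (median 1399) in vehicle tumours, a difference of −2.47 ± 0.14. Ccna2, cyclin A, read 245 to 366 (median 286), 1306 to 2264 (median 1885) and 819 to 1203 (median 1021) in the same order, a difference of −2.57 ± 0.14. For 57 of the 62 genes the median of the MEK inhibitor tumours lay above all 6 vehicle tumours, and for 60 the NRAS-off median lay below them. Only Kif15 was not called. The size of the list's median depended on the probe sets: it was −1.47 with the mean over a gene's probe sets.

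Regulators of these genes differed in the same direction. Of 17 E2F and RB family genes, 13 were lower and none higher, with a median of −0.30. E2f7, a repressing E2F that is itself an E2F target, read 36.6 to 67.2 (median 57.0) in NRAS-off, 245 to 409 (median 338) in MEK inhibitor and 230.3 to 426 (median 309) in vehicle tumours, a difference of −2.31 ± 0.15. E2f8 and Rbl1 (p107) differed by −1.70 ± 0.10 and −1.26 ± 0.16, and Foxm1, the activator of mitotic genes, by −0.70 ± 0.09.

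**Figure D4:**
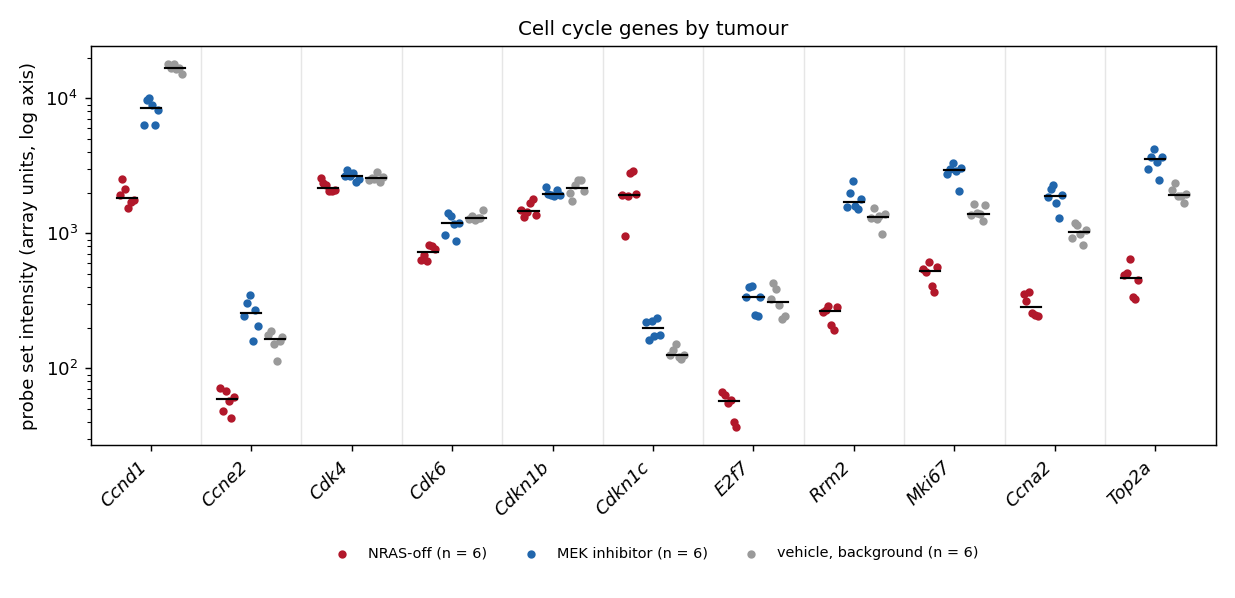
Probe set intensity (array units, log axis) of cell cycle genes in the 6 NRAS-off (red), 6 MEK inhibitor (blue) and 6 vehicle tumours (grey), with a bar at each median. For Ccnd1 the blue points lie between the other arms, for Rrm2, Mki67, Ccna2 and Top2a they lie at or above the grey ones, and for Cdkn1c the red points stand above both.

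Mitotic genes are known to be controlled through a promoter element called CHR, to which DREAM and FOXM1 complexes bind, often beside CCAAT boxes, and many replication genes through E2F sites. The upstream sequences of 4 mitotic genes are shown because 61 of the 62 genes of their list differed in 1 direction; the 4 were picked among the members that hold both elements, and CHR (TTTGAA or its reverse complement TTCAAA) and CCAAT (or ATTGG) are in capitals. They are RefSeq promoters of build GRCm38.p6, 5′ to 3′ on the gene's strand, and cover the 120 bases before the annotated start: Top2a at chr11:99024190-99024309 (minus), Ube2c at chr2:164769809-164769928 (plus), Cdc20 at chr4:118437344-118437463 (minus) and Cdk1 at chr10:69352913-69353032 (minus).
Top2a: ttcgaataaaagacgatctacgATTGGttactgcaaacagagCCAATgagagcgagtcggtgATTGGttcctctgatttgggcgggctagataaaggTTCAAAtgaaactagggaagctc
Ube2c: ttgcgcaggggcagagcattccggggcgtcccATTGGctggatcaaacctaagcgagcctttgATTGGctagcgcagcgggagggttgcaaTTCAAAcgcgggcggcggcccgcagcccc
Cdc20: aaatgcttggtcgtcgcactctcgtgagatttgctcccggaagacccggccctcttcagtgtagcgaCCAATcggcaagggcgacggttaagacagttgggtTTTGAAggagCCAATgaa
Cdk1: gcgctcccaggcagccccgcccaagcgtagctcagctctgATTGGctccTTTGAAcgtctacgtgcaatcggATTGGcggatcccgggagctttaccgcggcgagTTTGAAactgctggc
Ube2c and Cdc20, which drive destruction of mitotic proteins, and Cdk1, the mitotic kinase, differed by −2.51 ± 0.18, −2.21 ± 0.10 and −2.13 ± 0.16. In windows from 250 bases before to 50 after the start, on both strands, TTTGAA was present in at least 1 promoter of 36 of the 52 G2 and mitosis genes with a promoter in the table (69.2%), 8 of 39 replication genes (20.5%), 1759 of 12001 genes tested (14.7%) and 20.2% of all promoters. Within 50 bases of the start it was present in 32 of the 52 (61.5%) and in 461 of the genes tested (3.84%). TTTGGCGC or TTTCCCGC, the E2F letters searched, were present in 12 of the 39 replication genes (30.8%), 7.69% of the G2 and mitosis genes and 3.10% of the genes tested. CCAAT was present in 71.2% of the G2 and mitosis genes and 42.0% of the genes tested. These matches describe letters and not binding.

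Growth and metabolic genes split by pathway. Myc, the growth-promoting transcription factor, was slightly higher without NRAS: it read 376 to 641 (median 473) in NRAS-off, 313 to 429.7 (median 390.1) in MEK inhibitor and 1336 to 2419.8 (median 1711) in vehicle tumours, a difference of 0.35 ± 0.11 (adjusted p = 0.0207). Both arms lay below every untreated tumour for Myc. Of 12 genes of the MYC and MAX network, 2 were lower and 6 higher, with a median of 0.20. That median was 0.03 with every probe set tested and 0.10 with the mean over a gene's probe sets. Max, the partner of MYC, differed by 0.64 ± 0.10, and the 2 lower members, Mxd3 and Mxi1, by −0.91 ± 0.11 and −0.64 ± 0.10. Of 38 ribosome biogenesis genes, 6 were lower and 9 higher; the MEK inhibitor median lay below the vehicle range for 36 of them and the NRAS-off median for all 38. Of 20 cytosolic ribosomal protein genes tested, 17 were lower, with a median of −0.14. These differences were small: Rpl8 and Rps6 differed by −0.43 ± 0.05 and −0.30 ± 0.06.

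Of 18 glycolytic genes, 13 were lower in NRAS-off than in MEK inhibitor tumours and none higher, with a median of −0.66. The NRAS-off median lay below the vehicle range for 15 of them, and the MEK inhibitor median below it for 6, within it for 8 and above it for 4. Slc2a1, the glucose transporter GLUT1, read 849.8 to 1599 (median 1001) in NRAS-off, 1999 to 3746 (median 2474) in MEK inhibitor and 1939 to 3512 (median 2926) in vehicle tumours, a difference of −1.31 ± 0.17. Pfkl, the liver-type phosphofructokinase, and Pkm, pyruvate kinase, differed by −1.12 ± 0.15 and −0.93 ± 0.12. Of 23 hypoxia targets, 13 were lower and 3 higher; the NRAS-off median lay below the vehicle range for 6, within it for 11 and above it for 6, and the MEK inhibitor median lay below it for 1, within it for 14 and above it for 8. Vegfa, the endothelial growth factor, read 198 to 254 (median 207), 465 to 631 (median 511) and 498 to 665 (median 575) in NRAS-off, MEK inhibitor and vehicle tumours, a difference of −1.23 ± 0.08, and Bnip3 differed by −1.45 ± 0.17. Of 26 oxidative phosphorylation genes, 3 were lower and 4 higher, both below the shares over all genes.

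Of 20 cholesterol synthesis genes, 13 were lower and 2 higher in NRAS-off tumours, with a median of −0.31; the MEK inhibitor median lay below the vehicle range for 15 of them and the NRAS-off median for 17. Sqle, squalene epoxidase, differed by −1.40 ± 0.16 and Idi1, an isopentenyl isomerase, by −1.19 ± 0.14. Of 13 fatty acid synthesis genes, 7 were lower and none higher. Targets of ATF4, the factor of the amino acid response, counted 11 lower and 5 higher of 22. The MEK inhibitor median lay below the vehicle range for 17 of them and the NRAS-off median for 16. Asns, asparagine synthetase, read 269 to 372 (median 306) in NRAS-off and 827 to 1136 (median 974) in MEK inhibitor tumours. It differed by −1.61 ± 0.10, and vehicle tumours read 2550 to 3140 (median 2749). The unfolded protein response counted 5 lower and 5 higher of 22.

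Genes of cell death showed no shared direction. Bcl2l11, which encodes the BH3-only killer BIM that ERK restrains, read 2556 to 2931 (median 2831) in NRAS-off, 2265 to 4317 (median 3048) in MEK inhibitor and 1011 to 1363 (median 1141) in vehicle tumours. Its difference was −0.15 ± 0.12 (adjusted p = 0.334), with a 95% interval of −0.42 to 0.11. Bmf, another BH3-only gene, read 356 to 481 (median 400.3), 333 to 421 (median 358) and 74.2 to 111 (median 101) in the same order, a difference of 0.15 ± 0.08 (adjusted p = 0.134; 95% interval −0.02 to 0.32). Both genes overlapped between the arms and lay above all untreated tumours in both. Of 9 BH3-only genes, 2 were lower and 2 higher, Bid by 1.11 ± 0.11. Bcl2l1, the survival gene of BCL-XL, read 504 to 618 (median 575) in NRAS-off and 896 to 1055 (median 989) in MEK inhibitor tumours. Its difference was −0.77 ± 0.06, but its 2 other probe sets tested were not called. Vehicle tumours read 1232 to 1498 (median 1429) for Bcl2l1. Mcl1, another survival gene, was 0.71 ± 0.07. Of 6 BCL2 survival genes and BAX effectors, 3 were lower and 1 higher. Inhibitors of apoptosis and caspases counted 3 lower and 6 higher of 13, targets of p53 counted 5 and 8 of 23, and FOXO targets 8 and 6 of 25.

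Lineage genes differed in both directions. Of 11 pigment and melanocyte genes tested, 6 were higher and 2 lower in NRAS-off tumours, and of the 6 melanocytic cell markers 3 were higher and 1 lower. These balances depended on the processing. The median of the pigment list was 0.64, but 0.06 without the filter and 0.16 with every probe set tested. For the melanocytic cell markers it was 0.42, but 0.05 and −0.01 under the same settings. Pmel, a structural protein of melanosomes, read 284 to 1568 (median 671) in NRAS-off, 167 to 331 (median 212) in MEK inhibitor and 101 to 138 (median 123) in vehicle tumours, a difference of 1.50 ± 0.31, with overlap between the compared arms. Mitf, the regulator of melanocyte genes, read 852 to 1211 (median 1013), 529 to 643 (median 569) and 513 to 549 (median 544) in the same order, a difference of 0.78 ± 0.08. Sox10, in contrast, was −0.45 ± 0.10. Of 19 neural crest and glial genes, 8 were lower and 2 higher. Tfap2b, a crest factor, differed by −2.50 ± 0.27, Nes by −1.34 ± 0.09 and Cdh2 (N-cadherin) by −1.22 ± 0.07. The medians of MEK inhibitor and vehicle tumours were 729 and 896 for Tfap2b, 2622 and 5769 for Nes, and 2564 and 2197 for Cdh2. Igf2bp1, an RNA-binding protein of fetal cells, read 38.9 to 53.5 (median 44.5) in NRAS-off and 37.1 to 55.7 (median 46.1) in MEK inhibitor tumours, a difference of −0.01 ± 0.08 (adjusted p = 0.914; 95% interval −0.18 to 0.15), while vehicle tumours read 42.5 to 76.4 (median 45.8).

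The 12 most positive differences included genes of MHC class II and of leukocytes. Cd74, the chaperone of MHC class II molecules, read 2925 to 9588 (median 5779) in NRAS-off and 318 to 1094 (median 457) in MEK inhibitor tumours, a difference of 3.34 ± 0.35, against 895 to 1229.8 (median 1074) untreated. Iigp1, a GTPase induced by interferon, had the most positive difference, 3.37 ± 0.52, from 155 to 1456 (median 280.0) in MEK inhibitor to 1996 to 10813 (median 3661) in NRAS-off tumours. Clec7a, the macrophage receptor dectin-1, differed by 3.21 ± 0.23, and Fcgr3, an Fc receptor, by 3.06 ± 0.25. H2-Aa, an MHC class II chain, differed by 3.06 ± 0.33. Of the other members of the 12 most positive differences, Cd52 and Cd48 are leukocyte surface genes, Ccl12 is a monocyte chemokine, and Calhm6, AW112010 and Scrg1 complete them with Cdkn1c; these 6 besides Cdkn1c lay between 2.81 and 3.29. The 12 were chosen among genes without overlap between the arms, which left out Cxcl9.

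Of 17 macrophage markers tested, 16 were higher in NRAS-off tumours and none lower, with a median of 2.10. Their mean log2 level was 11.01 to 11.41 in NRAS-off, 8.54 to 9.67 in MEK inhibitor and 9.80 to 10.49 in vehicle tumours, so that the MEK inhibitor arm lay lowest and the NRAS-off arm highest. Cd68, a macrophage lysosomal protein, read 2370.3 to 3576 (median 2726), 188 to 734 (median 503) and 806 to 1219 (median 1076) in NRAS-off, MEK inhibitor and vehicle tumours, a difference of 2.69 ± 0.29. Cd163 was the 1 marker not called. Dendritic cell markers were higher in 6 of 8, NK and lymphoid markers in 10 of 13 with Prf1 lower, mast cell markers in 8 of 10 with Mcpt1 lower, and neutrophil markers in 2 of 7. The filter used the mean over both arms, so a dim marker could pass through the arm where it was high. Ms4a1, a lymphoid marker called higher, read 16.6 to 22.2 in MEK inhibitor tumours, under the filter intensity of 23.4. It passed only through the NRAS-off tumours (median 63.4), so its call adds no support. Only 3 of the 13 NK and lymphoid markers had no overlap between the arms. For mast cell markers the mean log2 level had medians of 7.42 in NRAS-off, 6.64 in MEK inhibitor and 7.44 in vehicle tumours. The MEK inhibitor median lay below the vehicle range for 8 of these markers, and the NRAS-off median above it for 5. Cpa3, a mast cell protease, read 608 to 970.1 (median 772) in NRAS-off and 82.8 to 379 (median 218) in MEK inhibitor tumours. It differed by 1.87 ± 0.32, and vehicle tumours read 311 to 560 (median 415).

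Antigen presentation and interferon genes moved with these markers; the part of leukocyte number in them was not tested. All 13 MHC class I presentation genes were higher in NRAS-off tumours, with a median of 1.32, and 9 of 10 MHC class II genes were higher, with a median of 1.79 that was 2.79 with a filter at the 50th percentile. Psmb8, an immunoproteasome subunit, read 1070.4 to 3597 (median 1689) in NRAS-off, 242 to 591 (median 299) in MEK inhibitor and 488 to 777 (median 595) in vehicle tumours, a difference of 2.37 ± 0.28. Of 27 genes of the type I interferon response, 24 were higher and 1, Ifit2, lower, with a median of 0.91. Ifit3, an antiviral effector, differed by 1.72 ± 0.19. The NRAS-off median lay above the vehicle range for 25 of the 27, and the MEK inhibitor median for 10. Of 28 chemokines and cytokines, 19 were higher and 1 lower. The NRAS-off median lay below the vehicle range for 3, within it for 11 and above it for 14. The MEK inhibitor median lay below it for 14 and within it for 14. Ccl12 had medians of 1120 in NRAS-off, 139 in MEK inhibitor and 712 in vehicle tumours. Cxcl9, which interferon gamma induces, differed by 3.16 ± 0.79, and Ccl11 (eotaxin) by 1.94 ± 0.39.

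**Figure D5:**
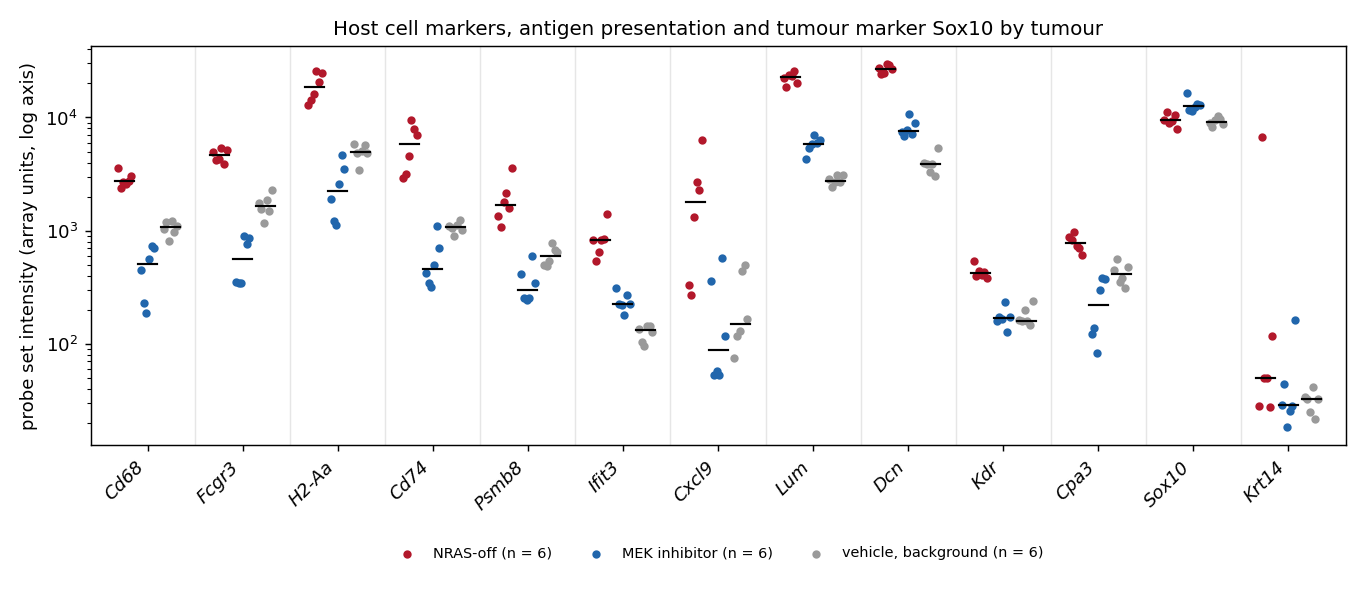
Probe set intensity (array units, log axis) of host and immune genes with Sox10 and Krt14 in the 6 NRAS-off (red), 6 MEK inhibitor (blue) and 6 vehicle tumours (grey), with a bar at each median. The red points lie above the blue ones for Cd68, Fcgr3, H2-Aa, Cd74 and Psmb8, and for Krt14 a single red point, at 6785, stands far above all others.

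Fibroblast and endothelial markers were mostly higher in NRAS-off tumours as well. Fibroblast markers were higher in 14 of 16 with a median of 0.62; their mean log2 level was 12.97 to 13.37 in NRAS-off, 12.26 to 12.41 in MEK inhibitor and 11.53 to 12.04 in vehicle tumours. Lum, a collagen-binding proteoglycan, read 18604 to 25907 (median 22852) in NRAS-off, 4287 to 6957 (median 5884) in MEK inhibitor and 2451 to 3121 (median 2766) in vehicle tumours, a difference of 1.96 ± 0.11. Of 36 collagen and matrix genes, 19 were higher and 2 lower, and of 18 matrix proteases and inhibitors 9 were higher and 3 lower; Mmp12, the macrophage elastase, differed by 2.51 ± 0.50. Endothelial markers were higher in 13 of 15, Kdr, a VEGF receptor, by 1.26 ± 0.12, although Vegfa was lower. Smooth muscle and pericyte markers counted 4 higher and 2 lower of 11, with Cspg4, which melanoma cells also express, at −2.49 ± 0.09. Adipocyte markers were higher in 5 of 8, skeletal muscle markers in 9 of 12 and Schwann cell markers in 3 of 6, and the part of the surrounding tissue in these differences was not tested.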

How the data were processed

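Total RNA of 18 tumours was hybridised to 1-colour arrays, and the 12 tumours of the NRAS-off and MEK inhibitor arms were compared. The authors deposited probe set intensities, read here as linear from their range; MAS5 and RMA are named in the submitters' processing notes without their order or versions, and values made by another transformation would have another scale. No scan date or batch is given in the labels. Gene symbols came from the platform annotation, which can be old. Computed here were log2(intensity + 16) values without further normalization, 1 probe set per gene (the highest mean over the 12 arrays), and a filter at the 25th percentile of mean values over all probe sets (intensity 23.4), which left 15017 genes. The arms were compared with limma 3.58.1 in R 4.3.3 with no covariate, and genes at a Benjamini-Hochberg adjusted p under 0.05 were called. The 12 arrays of the compared arms alone set the probe sets, the filter and the fit; vehicle arrays gave untreated levels only. Within an arm the tumours' spread is that of 6 samples, with 10 residual degrees of freedom. The procedure was tested on simulated data drawn from these arrays, in which 92.5% of genes changed 1.5-fold and 95.5% of genes changed 2-fold were recovered among 15017 genes.

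Genes are named here by rule: the 12 most negative and 12 most positive differences among called genes whose tumours do not overlap, up to 4 called members of each of 35 gene lists and 14 marker lists by size, and 26 genes of the pathway always shown; others are named where they are exceptions or hold a printed promoter, and those were chosen after their values were seen. The members and lists were chosen with earlier results of these data known. Alternatives tried were pseudocounts of 1 and 64, other filters, probe set rules, normalizations, priors and thresholds, array weights, all 18 tumours in 1 fit, the replicate number as a block, and leaving out each tumour. Promoter windows were matched to symbols in a RefSeq table of build GRCm38.p6. Lists are described by counts and medians, with no test over a list.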

Additional observations from a re-analysis of the deposited data

Results flagged for a closer look

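Each of the 202 genes named by rule was checked in both arms for 1 tumour far from the other 5, by the gap to its nearest neighbour over the whole range. Of 404 sets of 6 values, 16 were past Dixon's limit for 6 values; chance flags about 1 in 20. NRAS-off replicate 2, the tumour that also stood apart by Krt14, was high for Slc2a1 at 1599 (others 849.8 to 1009), Sqle at 393 (others 161 to 225), Erbb3 at 4632 (others 3260 to 3605) and Adamts1 at 5501 (others 2430 to 3069). NRAS-off replicate 4 was high for Rras2 at 851 (others 619 to 664) and Myh11 at 150.3 (others 79.6 to 98.8), and NRAS-off replicate 1 for Pdia6 at 2631 (others 2268 to 2339) and Cldn5 at 406 (others 241 to 274).

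In the MEK inhibitor arm, replicate 1 was low for Gzmd at 175.5 (others 425 to 582) and Pik3cg at 30.4 (others 40.4 to 45.7) and high for Fmod at 4502 (others 1094 to 1793). Replicate 2 was high for S100a9 at 799.9 (others 37.2 to 106) and Cxcl5 at 70.7 (others 23.7 to 33.6), both genes of neutrophil responses, and low for Ogn at 1261 (others 1583 to 1792). Replicate 5 was low for Mki67 at 2046 (others 2774 to 3329) and Lbhd2 at 499 (others 749 to 943). All these Mki67 values remain above the 368 to 617 of the NRAS-off tumours.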

How the results depend on the processing

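Against the 3413 lower and 3675 higher genes, an adjusted p under 0.01 gave 2504 and 2813. Testing every probe set gave 6784 lower and 6991 higher, because more features were tested, and asking for a log2 difference over 1 gave 409 and 674. Leaving out each tumour in turn gave 3112 to 3504 lower and 3422 to 3661 higher genes. Median centring gave 3920 lower and 3274 higher, so that 45.5% instead of 51.8% of the calls were higher. Of the values of single genes named here under the alternatives, 5123 kept direction and side of the threshold, 114 lost it (31 of them at the unchanged threshold), 2 gained it and 0 turned sign past it. Map2k1 gained a call with median centring (−0.18) and without NRAS-off replicate 3 (−0.20), Acly lost it without NRAS-off replicate 5 (−0.15) and S100a9 with array weights (2.19), and Tgfa, Ednrb and Cxcl5 lost it without several single tumours. Of the list medians, 62 moved by more than the spread between tumours and 1162 did not; that of the G1 cyclins and kinases turned from −0.24 to 0.26 when every probe set was tested, and medians near 0, such as that of the inhibitors of apoptosis and caspases, changed sign under some settings. The cause of these moves was not tested. Tumours of the 2 arms carry the same replicate numbers, but deviations of same-numbered tumours correlated at only 0.04 to 0.15 and not every tumour correlated best with its own number, so the numbers were not taken as pairs; with the replicate block 3213 genes were lower and 3561 higher. Precision is limited by the number of arrays and, for genes near the filter, by signal over background.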

Other observations

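Some named members of the lists above have not yet been given with their values. Among targets of p53, Plk2, a polo-like kinase, differed by −1.20 ± 0.10 and Eda2r, a receptor of the TNF receptor family, by 0.99 ± 0.14. Among FOXO targets, Txnip, which binds thioredoxin and restrains glucose uptake, read 3403 to 5396 (median 4203) in NRAS-off, 1455 to 2492 (median 1728) in MEK inhibitor and 791 to 1696 (median 1028) in vehicle tumours, a difference of 1.16 ± 0.14, opposite in direction to the glucose transporter Slc2a1. Among fatty acid synthesis genes, Elovl6, an elongase, differed by −1.13 ± 0.10 and Scd1, a desaturase, by −0.63 ± 0.08. Among genes of the myelin and glial group, Mbp differed by 1.44 ± 0.46, with overlap between the arms, against the direction of the crest factors Tfap2b and Tfap2a (−1.03 ± 0.13).

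Of 6137 probe sets with no symbol or several symbols that passed the filter, 945 were lower and 1109 higher in NRAS-off tumours at the same threshold. Alas2, the 1 red blood cell marker tested, differed by −0.05 ± 0.09 and was not called.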
